A study of Arabidopsis thaliana with 87 samples.

Results

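The brassinosteroid genes described here are 9 loci of Arabidopsis thaliana. They were listed by gene identifier, with no cutoff on a measured value but with earlier results of these data known. They are the synthesis genes DET2 (AT2G38050), DWF4 (AT3G50660), CPD (AT5G05690), ROT3 (AT4G36380), BR6OX1 (AT5G38970) and BR6OX2 (AT3G30180), the inactivating gene BAS1 (AT2G26710), the receptor gene BRI1 (AT4G39400) and the transcription factor gene BZR1 (AT1G75080). All 9 were found among the 37899 genes with deposited RPKM, a read count scaled to the length of the gene and the size of the library. Seedlings were 7 days old at treatment, which began at the end of the light period. The groups were 2 h of darkness without stress (2NS), 2 h of darkness with hypoxia under argon (2HS), 9 h of each (9NS and 9HS), and 2 h of hypoxia followed by 1 h (1R) or, in ribosome-bound RNA only, 2 h (2R) of reoxygenation, for which the labels give no light condition. Wild-type Col-0 seedlings gave the ChIP-seq libraries of the histone marks H3K9ac, H3K14ac, H3K4me3 and H3K27me3 and of RNA polymerase II with Ser2P in its tail, the form found on elongating polymerase. The histone variant H2A.Z was pulled down from a pHTA11:HTA11-3XFLAG line. Nuclear RNA, poly(A)+ RNA and open chromatin (ATAC-seq) came from a pUBQ10:NTF pACT2:BirA line, whose tagged nuclei can be purified, and ribosome-bound RNA (TRAP, translating ribosome affinity purification) from a p35S:RPL18-FLAG line. ChIP-seq of the hypoxia-response factor HRE2 used p35S:C2A HRE2-HA seedlings, in which a constitutive promoter drives the tagged factor, after 2 h of hypoxia and with no non-stress group. ATAC-seq was made on roots and all other assays on whole seedlings, in which fewer cells of a type and less RNA per cell cannot be told apart.

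Brassinosteroids are plant steroid hormones that promote cell elongation. They are made from sterols by the reductase DET2 and a series of cytochrome P450 oxygenases, and BAS1, a P450 of the same kind, inactivates the finished hormone. P450 enzymes use molecular oxygen as a substrate. The hormone binds the receptor kinase BRI1 at the cell surface, which leads to active BZR1 in the nucleus, and BZR1 in turn represses the synthesis genes CPD and DWF4 as part of a feedback loop.

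The deposited RPKM values are group means, and reads per library were recovered from their digits (77 libraries of 1.05 to 20.96 M reads, M being the prefix mega, and 2 or 3 libraries per group). For CPD and BRI1 in most groups of 3 libraries, and for ROT3 and BZR1 in a few, more than 1 set of reads gave the same mean, so that only the authors' mean is given there, without a test. Each change below is a difference of log2(RPKM + 1) less that of the median gene, given with its standard error and with the limma p-value adjusted over all genes tested by the Benjamini-Hochberg method. A gene is called when that adjusted p is under 0.05. Shares of all genes called are shares of the genes tested, so they leave out genes whose libraries were not resolved. No label says that libraries came from separately grown seedlings, so p-values measure the spread between libraries only. How many of all genes had libraries that did not overlap between groups was not counted. With 2 or 3 libraries per group, a lack of overlap is given as description only. The hypoxia marker gene ADH1 went from a mean of 19.8 RPKM in 2NS to 1238 in 2HS and back to 169 in 2R in ribosome-bound RNA.

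After 2 h of hypoxia H3K9ac, an acetylation mark of active genes, was lower over 5 of the 6 synthesis genes, BR6OX2, CPD, DWF4, ROT3 and BR6OX1. H3K9ac over the receptor gene BRI1 and the factor gene BZR1 did not pass the test. Of all 26501 genes tested, 5.09% were called lower and 6.6% higher. BR6OX2 encodes the oxidase of the last synthesis steps. Its H3K9ac libraries gave 23.99 and 20.11 RPKM in 2NS and 5.11 and 6.06 RPKM in 2HS. This change of -1.79 ± 0.16 (limma adjusted p = 7.61e-05) was the largest of the 9 genes at 2 h, and the groups lay far apart. CPD, a P450 of an intermediate step, had 33.89 and 31.58 RPKM in 2NS and 12.81 and 11.10 RPKM in 2HS, a change of -1.37 ± 0.12 (limma adjusted p = 5.71e-05). DWF4, which hydroxylates the steroid side chain in a rate-limiting step, went from 14.77 and 12.37 RPKM to 5.53 and 4.34 RPKM, or -1.28 ± 0.16 (limma adjusted p = 0.00049). In both genes every hypoxia library lay below the non-stress libraries.

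ROT3, another side-chain hydroxylase, fell in H3K9ac from 19.46 and 22.01 RPKM in 2NS to 10.79 RPKM in each 2HS library (-0.87 ± 0.12, limma adjusted p = 0.000938). BR6OX1, the close relative of BR6OX2, had 7.59 and 8.34 RPKM in 2NS and 4.73 and 4.16 RPKM in 2HS. That change of -0.71 ± 0.18 passed with a limma adjusted p of 0.0259, and it missed the threshold without the 2NS library of 11.26 M reads, without that of 10.57 M or without the 2HS library of 3.87 M (limma adjusted p between 0.114 and 0.2). DET2, an early reductase and the one synthesis gene here that is not a P450, had 58.20 and 44.37 RPKM in 2NS and 39.70 and 36.83 RPKM in 2HS. Its change of -0.39 ± 0.17 was not called (limma adjusted p = 0.185). The inactivating gene BAS1 changed by -0.23 ± 0.17 (limma adjusted p = 0.477) from a mean of 7.51 RPKM in 2NS. BRI1 changed by 0.02 ± 0.15 and its libraries overlapped, with 43.75 and 42.14 RPKM in 2NS against 38.83 and 47.85 RPKM in 2HS. BZR1 changed by 0.08 ± 0.11, from 24.87 and 24.58 RPKM to 26.37 and 25.62 RPKM.

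**Figure D1:**
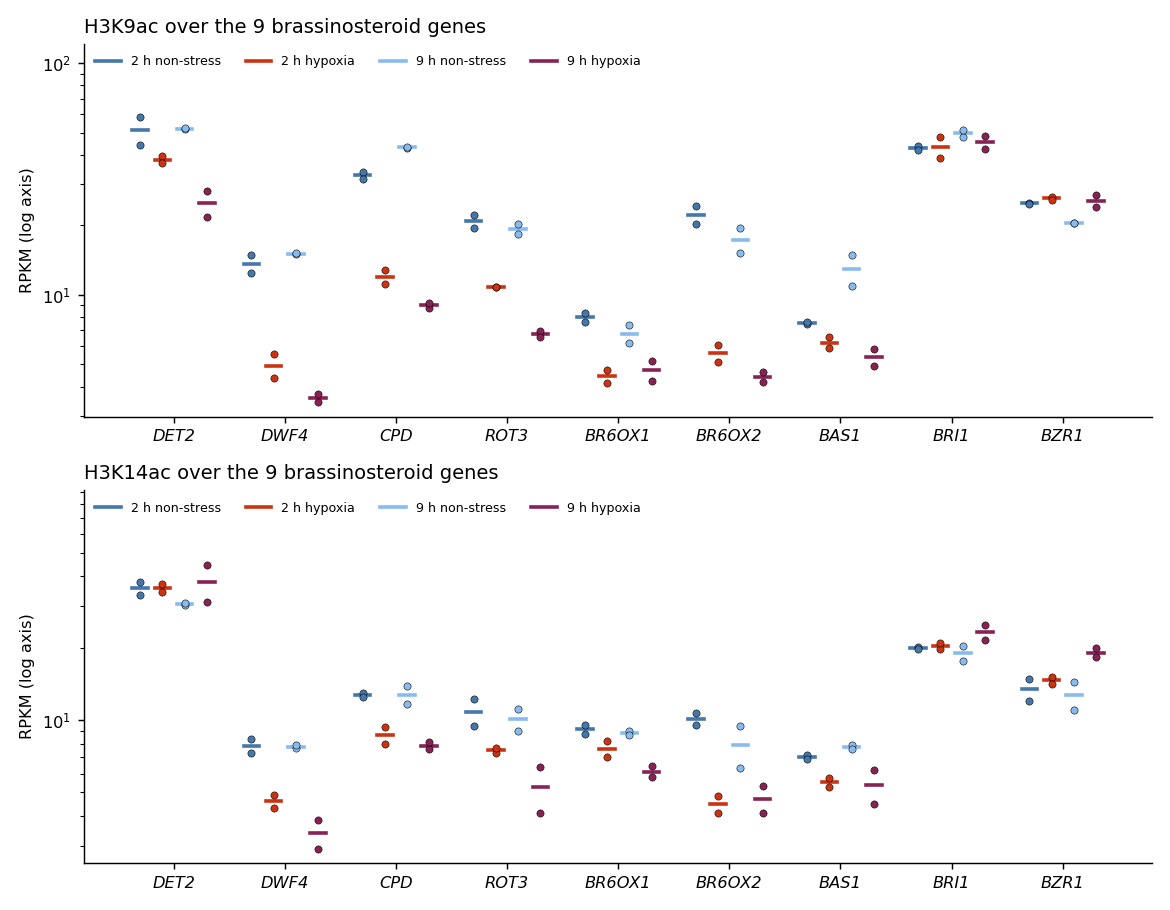
H3K9ac (top) and H3K14ac (bottom) over the 9 brassinosteroid genes, in RPKM on a log axis; each point is a library, each bar the authors' group mean, and the colours mark 2 h or 9 h without stress or with hypoxia (2 libraries per group). In H3K9ac at 9 h the hypoxia libraries of DWF4 (3.42 and 3.72 RPKM) and CPD (8.75 and 9.22 RPKM) lie well below the non-stress libraries, while those of BRI1 overlap.

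After 9 h the list of called genes was longer. H3K9ac was lower over 5 synthesis genes (CPD, DWF4, BR6OX2, ROT3 and DET2) and over BAS1, beside 16.3% of all genes called lower and 15.1% called higher. CPD had 43.05 and 43.28 RPKM in 9NS and 8.75 and 9.22 RPKM in 9HS, a change of -2.15 ± 0.12 (limma adjusted p = 1.63e-06). The change of DWF4 was -1.82 ± 0.16 (limma adjusted p = 1.29e-05), from 14.93 and 15.12 RPKM to 3.42 and 3.72 RPKM. In both genes the libraries of a group were close together and the groups were far apart. BR6OX2 fell from 19.31 and 15.11 RPKM to 4.62 and 4.21 RPKM (-1.75 ± 0.16, limma adjusted p = 1.51e-05), and ROT3 from 18.28 and 20.07 RPKM to 6.93 and 6.56 RPKM (-1.39 ± 0.12, limma adjusted p = 1.26e-05).

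DET2 and BAS1, neither of which was called at 2 h, were both called at 9 h. DET2 had 51.92 and 52.20 RPKM in 9NS and 28.04 and 21.56 RPKM in 9HS (-1.06 ± 0.17, limma adjusted p = 0.000669). BAS1 had 14.80 and 10.88 RPKM in 9NS and 5.81 and 4.90 RPKM in 9HS (-1.12 ± 0.17, limma adjusted p = 0.000489). BR6OX1 changed by -0.45 ± 0.18 from 6.16 and 7.35 RPKM to 4.23 and 5.17 RPKM and was not called (limma adjusted p = 0.0787). BRI1 changed by -0.14 ± 0.15 (limma adjusted p = 0.553), with overlapping libraries of 48.08 and 51.33 RPKM in 9NS and 48.21 and 42.52 RPKM in 9HS. BZR1 was the one gene of the 9 with a positive value, 0.29 ± 0.11, from 20.37 and 20.42 RPKM to 26.94 and 23.82 RPKM, and did not pass either (limma adjusted p = 0.0733).

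The summed H3K9ac of 3 leaf markers, LHCB2.1, CAB1 and RBCS1A, was 118.9 RPKM in 2NS, 97.7 in 2HS, 159.6 in 9NS and 61.2 in 9HS, and that of 5 root markers, PIN2, CASP1, EXP7, COBL9 and PRP3, was 42.8, 43.1, 54.2 and 49.3 RPKM, with none at 0. RBCS1A, which encodes a Rubisco subunit, went from 62.9 to 10.5 RPKM at 9 h. Their part in the H3K9ac values of the brassinosteroid genes was not tested.

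Whether the response at 9 h differed from that at 2 h was tested as the difference of both changes. CPD alone was called, with a further fall in H3K9ac of -0.78 ± 0.16 (limma adjusted p = 0.0254), where 2.77% of all genes were called lower and 1.66% higher. That call did not hold when any 1 of 7 of the 8 H3K9ac libraries was left out (limma adjusted p between 0.0558 and 0.13), and its value then ranged from -0.89 to -0.67 over all 8. BAS1 (-0.89 ± 0.24, limma adjusted p = 0.0645), ROT3 (-0.52 ± 0.17, limma adjusted p = 0.116), DET2 (-0.67 ± 0.24, limma adjusted p = 0.151) and DWF4 (-0.53 ± 0.22, limma adjusted p = 0.225) were not called. BAS1 was called without the 9NS library of 3.94 M reads (-1.11 ± 0.24, limma adjusted p = 0.0425; 2.72% of all genes). BR6OX2 was at 0.05 ± 0.22, with nearly the same fall at both times. In the comparison of 9NS with 2NS none of the 9 genes was called in H3K9ac (0.902% of all genes were, and 4 of the 9 had an unadjusted p under 0.05). The largest values there were those of BAS1, 0.67 ± 0.17 (limma adjusted p = 0.124), and CPD, 0.37 ± 0.12 (limma adjusted p = 0.222).

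H3K14ac, another acetylation of the same histone tail, was lower at 9 h of hypoxia over DWF4, CPD and ROT3 and higher over BZR1, beside 5.57% of all genes called lower and 17.2% called higher. DWF4 had 7.67 and 7.86 RPKM in 9NS and 3.83 and 2.91 RPKM in 9HS (-0.92 ± 0.20, limma adjusted p = 0.00673). CPD had 11.68 and 13.95 RPKM against 7.60 and 8.10 RPKM (-0.55 ± 0.14, limma adjusted p = 0.0172), and ROT3 11.14 and 9.04 RPKM against 6.39 and 4.11 RPKM (-0.75 ± 0.20, limma adjusted p = 0.0201). BZR1 went the other way, from 14.50 and 11.09 RPKM to 18.31 and 19.99 RPKM (0.65 ± 0.14, limma adjusted p = 0.00769). None of the 9 genes was called without the 9HS library of 8.36 M reads, and 1 was called without the 9NS library of 6.55 M reads. Without the 9HS library of 11.72 M reads CPD missed the threshold (limma adjusted p = 0.0566), while DET2 (0.60, limma adjusted p = 0.0294) and BRI1 (0.46, limma adjusted p = 0.0399) were called higher. ROT3 lost its call without the 9NS library of 7.05 M reads (-0.62, limma adjusted p = 0.134) and ranged from -1.03 to -0.48 over the libraries left out. Without centring, 10.2% of all genes were called lower and 12.7% higher. The leaf markers summed to 44.4 RPKM of H3K14ac in 9NS and 50.2 in 9HS. LHCB2.1 (14.1 to 18.5 RPKM) and CAB1 (14.8 to 24.2) rose there, and RBCS1A (15.5 to 7.51) fell. The root markers summed to 82.8 and 61.9 RPKM, and the part of the leaf and root markers was not tested. BR6OX2 (-0.53 ± 0.21, limma adjusted p = 0.0938) and BRI1 (0.37 ± 0.12, limma adjusted p = 0.052) were near the threshold. BRI1 passed it when RPKM was rescaled to the protein-coding total (0.38, limma adjusted p = 0.0415).

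At 2 h no gene of the 9 was called in H3K14ac, where 0.61% of all genes were, and 3 of the 9 had an unadjusted p under 0.05. BR6OX2 came nearest, with 9.60 and 10.76 RPKM in 2NS against 4.83 and 4.10 RPKM in 2HS (-1.0 ± 0.21, limma adjusted p = 0.0612). CPD (-0.48 ± 0.14, limma adjusted p = 0.127) and DWF4 (-0.63 ± 0.20, limma adjusted p = 0.154) were not called either. The 9 h response differed from the 2 h response in none of the 9 genes (0.128% of all genes; 1 of the 9, BZR1, at an unadjusted p under 0.05), and 9NS differed from 2NS in none (0.00377% of all genes; 0 of the 9 at an unadjusted p under 0.05).

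The other chromatin features gave no call among the members tested after 2 h of hypoxia. In H2A.Z, a histone variant found around gene starts and over the bodies of genes of low expression, 0.0642% of all genes were called. BRI1 had 6.63 and 6.33 RPKM in 2NS and 11.50 and 14.59 RPKM in 2HS, a change of 0.91 ± 0.19 (unadjusted p = 0.000497, limma adjusted p = 0.132). CPD had 8.39 and 8.04 RPKM in 2NS and 13.85 and 10.58 RPKM in 2HS and did not pass (0.52 ± 0.19, limma adjusted p = 0.371), nor did DET2 (0.33 ± 0.14, limma adjusted p = 0.441). These 3 genes had an unadjusted p under 0.05. Without the 2HS library of 10.03 M reads, BRI1 (1.09 ± 0.18, limma adjusted p = 0.00128) and BR6OX1 (-0.54 ± 0.15, limma adjusted p = 0.0227) were called, as were 20.3% of all genes.

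H3K4me3, a mark of active gene starts, differed in none of the 6 genes whose libraries were resolved. It differed in 0% of the 19088 genes tested, of 26456 that passed the filter. By limma, it had an unadjusted p under 0.05 in 1372 genes and in 0 of the 6 members tested. Its mean in 2NS was highest over BRI1 (48.0 RPKM) and DET2 (34.9 ± 2.55 RPKM, SD, n = 3) and lowest over BR6OX1 (6.18 ± 0.63 RPKM, SD, n = 3). The largest change among those tested was that of BR6OX2, -0.33 ± 0.16 (limma adjusted p = 0.682). H3K27me3, the mark of Polycomb repression, also differed in 0% of all genes (limma; 1064 genes and 0 of the 9 had an unadjusted p under 0.05). It was highest over ROT3 (18.8 ± 1.93 RPKM, SD, n = 2) and BR6OX1 (13.0 ± 2.18 RPKM, SD, n = 2) in 2NS and between 2.07 and 9.83 RPKM over the other 7 genes.

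Libraries of 1 group disagreed in H3K27me3 over DET2 and CPD. DET2 had 0.29 and 4.84 RPKM in 2NS and 12.94 and 1.47 RPKM in 2HS, and CPD had 0.08 and 5.61 RPKM in 2HS. Neither the DET2 change (1.06 ± 1.03) nor the CPD change (-1.45 ± 0.89) exceeded this spread. The median gene of the H3K27me3 libraries lay within 0.12 on the log2 scale of its group mean.

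In elongating polymerase (Ser2P), 0% of the 16750 genes tested were called after 2 h of hypoxia. The filter had passed 26561 genes, and the rest were not tested. The hypoxia marker gene ADH1 had means of 13.4 RPKM in 2NS and 47.3 RPKM in 2HS. By limma, 624 genes and 0 of the 5 tested members had an unadjusted p under 0.05. The mean was lower over 8 of the 9 genes, all but BR6OX1, and the share of all genes lower in mean was not counted. The median change of means of the 9 genes was -0.60, beside 0 for all genes, where the centring sets it. CPD had the largest difference of means, from the authors' mean of 28.1 RPKM in 2NS to 10.53, 9.12 and 10.20 RPKM in the 2HS libraries, which is -1.31 and carries no test. BR6OX2 had 7.75, 8.23 and 6.58 RPKM in 2NS and 1.70, 4.73 and 5.37 RPKM in 2HS. Its change of -0.78 ± 0.50 did not pass (limma unadjusted p = 0.148). BRI1 had authors' means of 27.7 and 15.2 RPKM. BAS1 had 6.81, 7.34 and 8.04 RPKM in 2NS and 2.45, 4.67 and 5.42 RPKM in 2HS, and its change did not pass either (-0.64 ± 0.47, limma unadjusted p = 0.195).

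Nuclear RNA, which includes transcripts not yet exported, showed no called change of the members tested. After 2 h of hypoxia 0.53% of all genes were called, with 0 of the 7 members tested at an unadjusted p under 0.05. The scale of nuclear RNA libraries varied widely: a library's median gene lay between -2.21 and 0.94 log2 units of its group mean. For DWF4, for example, the 2NS libraries gave 1.08, 7.47 and 3.40 RPKM and the 2HS libraries 0.82, 0.29 and 2.05 RPKM. DET2 was represented by 5, 7 and 24 reads in 2NS and by 10, 2 and 0 reads in 2HS, too few for a firm statement. CPD stood at a mean of 32.3 RPKM in 2NS and at 3.65, 8.24 and 35.30 RPKM in 2HS.

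At 9 h, 0.985% of all genes were called lower and 0.675% higher in nuclear RNA, and 2 of the 7 members tested had an unadjusted p under 0.05. BAS1 had 5.35, 9.98 and 6.81 RPKM in 9NS and 1.68, 1.01 and 1.09 RPKM in 9HS. Its change of -1.87 ± 0.71 was not called (limma adjusted p = 0.183), but was when the fit held only the 9 h groups (-1.87, limma adjusted p = 0.0252). ROT3 had 6.53, 10.22 and 7.47 RPKM against 3.46, 0.68 and 2.12 RPKM (-1.65 ± 0.73, limma adjusted p = 0.302). Means of CPD were 82.5 RPKM in 9NS and 29.5 RPKM in 9HS. No member tested was called between 1R and 2HS (0 of 8, beside 0.443% of all genes), between 1R and 2NS (0 of 7, 0.0196%), between 9NS and 2NS (0 of 7, 0.0681%) or in the 9 h response against the 2 h response (0 of 7, 0.0276%). In the first 3 of these 0 members had an unadjusted p under 0.05, and in the last 1 did, BAS1.

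Poly(A)+ RNA as deposited had a lower mean at 9 h of hypoxia for each of the 9 genes, as it did for most transcripts: without centring, 87.4% of all genes tested were called lower. The authors' mean of CPD was 69.1 RPKM in 9NS and 4.66 RPKM in 9HS, and that of BAS1 was 3.83 and 0.18 RPKM. BAS1 libraries gave 4.74, 5.32 and 1.43 RPKM in 9NS and 0.19, 0.24 and 0.10 RPKM in 9HS, the latter from 8, 8 and 3 reads. The RPKM of all protein-coding genes summed to 353162 in 9NS and to 53956 in 9HS, and the median gene fell by 1.75 on the log2 scale. The summed RPKM of the leaf markers was 32751 in 9NS and 2596 in 9HS, and that of the root markers was 37.0 and 1.38, with the root hair gene EXP7 at 0 in 9HS. The part of these shifts in the values of the brassinosteroid genes was not tested.

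Relative to the median gene, 0 of the 6 members tested were called in poly(A)+ RNA at 9 h (0.419% of all genes lower and 2.8% higher; 0 of the 6 had an unadjusted p under 0.05). The 9HS values of DWF4, ROT3, BR6OX2 and BAS1 lay near or under the pseudocount of 1 RPKM. BR6OX2, BAS1 and ROT3 passed the filter of a mean of 1 RPKM only through 9NS. Their means as deposited were 4.67, 3.83 and 2.66 RPKM in 9NS, and at most 1.17, 1.74 and 1.41 RPKM in the other groups. For these genes, a call lower than 9NS is not independent of that filter. Rescaling the group means to a protein-coding total of 1 M, and each library by its median ratio to its group mean, gave another result. BR6OX2, BAS1 and DET2 were called lower, beside 20.7% of all genes. BR6OX2 then had 14.68, 12.19 and 12.88 per M in 9NS and 4.56, 7.24 and 6.73 in 9HS (-1.14 ± 0.26, limma adjusted p = 0.00243). BAS1 had 11.08, 10.28 and 12.97 per M against 4.28, 7.78 and 1.19 (-1.55 ± 0.35, limma adjusted p = 0.00219). DET2 had 37.00, 38.67 and 35.10 per M against 19.72, 19.28 and 33.60 (-0.77 ± 0.21, limma adjusted p = 0.00884), with 1 of the 3 hypoxia libraries close to the non-stress level. DWF4 overlapped between the groups, at 10.73, 11.74 and 12.04 per M in 9NS and 11.45, 10.40 and 11.91 in 9HS (-0.17 ± 0.16, limma adjusted p = 0.446), while CPD had means of 196 and 86.4 per M, with no test.

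**Figure D2:**
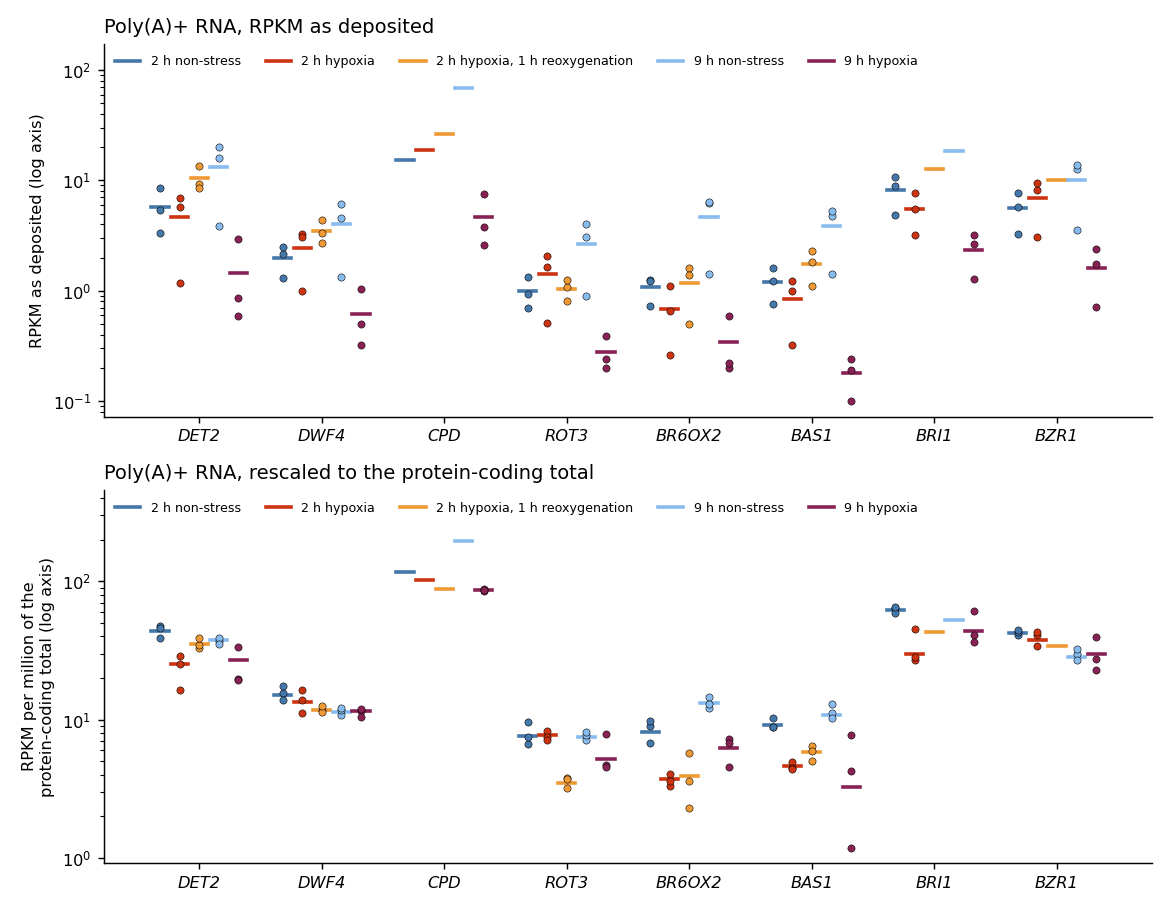
Poly(A)+ RNA of 8 brassinosteroid genes in 5 groups as deposited (top, RPKM, log axis) and rescaled to a protein-coding total of 1 M in each group mean (bottom, log axis). In the bottom panel each library was also scaled by its median ratio to its group mean. Points are libraries, bars are group means, and genes without points were not resolved into libraries. In the top panel every gene is lowest after 9 h of hypoxia; in the bottom panel DWF4 stands between 10.4 and 12.04 per M in both 9 h groups, and BAS1 between 1.19 and 7.78 per M in hypoxia.

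At 2 h of hypoxia 0 of 7 members were called in poly(A)+ RNA as deposited, where 0.45% of all genes were (limma; 0 of the 7 at an unadjusted p under 0.05). On the rescaled values 3 members were called lower, beside 5.93% of all genes. BR6OX2 had 9.01, 6.78 and 9.81 per M in 2NS and 3.30, 4.06 and 3.63 in 2HS (-0.92 ± 0.26, limma adjusted p = 0.0296). BRI1 had 63.66, 59.33 and 65.49 against 27.17, 28.22 and 45.01 (-0.82 ± 0.22, limma adjusted p = 0.0296), and DET2 38.59, 47.76 and 45.70 against 28.83, 25.14 and 16.41 (-0.81 ± 0.21, limma adjusted p = 0.019). Their groups did not overlap on this scale, though they did as deposited. As deposited, the leaf markers summed to 11168 RPKM in 2NS, 15871 in 2HS and 23256 in 1R and the root markers to 13.9, 14 and 19.8 RPKM. CASP1 made up most of the root sum (7.17, 9.70 and 14.6 RPKM). PIN2 (0.25 to 0.22 RPKM), EXP7 (0.96 to 0.59), COBL9 (0.61 to 0.37) and PRP3 (4.94 to 3.12) fell from 2NS to 2HS. The part of the leaf and root markers in the rescaled calls was not tested. BAS1 had 8.81, 8.90 and 10.21 per M in 2NS against 4.94, 4.44 and 4.43 in 2HS and was not called (-0.77 ± 0.35, limma adjusted p = 0.189).

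Reoxygenation for 1 h left no member called in poly(A)+ RNA as deposited, against 2HS (0.874% of all genes; 1 of 5 members, ROT3, at an unadjusted p under 0.05) or against 2NS (0.453%; ROT3 and BR6OX2). After rescaling, ROT3 was lower than in 2HS, where 4.73% of all genes were called lower, with 8.24, 7.51 and 7.13 per M in 2HS and 3.79, 3.21 and 3.75 in 1R (-0.98 ± 0.22, limma adjusted p = 0.00724). Against 2NS, where 6.04% of all genes were called lower, ROT3 (-0.92 ± 0.22, limma adjusted p = 0.0127) and BR6OX2 (-0.99 ± 0.26, limma adjusted p = 0.0196) were lower; BR6OX2 had 5.70, 3.61 and 2.29 per M in 1R. Comparisons of 1R, 2HS and 2NS share libraries and are not independent. ROT3 and BR6OX2 entered these tests only through their 9NS values, which carried them over the filter. No non-stress group had the duration of 1R, so time, light and reoxygenation cannot be told apart in its comparison with 2NS. Neither 9NS against 2NS (0.29% of all genes) nor the 9 h response against the 2 h response (0.0195%) gave a call among the members, and 0 of 6 had an unadjusted p under 0.05 in either.

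Ribosome-bound RNA, the transcripts on tagged ribosomes, was lower after 2 h of hypoxia for 3 of the 6 members that could be tested, BR6OX2, DWF4 and BAS1, beside 12.7% of all genes called lower and 12.8% higher. BR6OX2 had 3.18, 3.82 and 2.00 RPKM in 2NS and 0.87, 1.22 and 1.13 RPKM in 2HS (-0.87 ± 0.20, limma adjusted p = 0.00619). DWF4 had 5.55, 5.90 and 4.92 RPKM against 3.65, 2.14 and 1.97 RPKM (-0.81 ± 0.19, limma adjusted p = 0.00677), and BAS1 7.61, 8.76 and 7.77 RPKM against 4.05, 3.52 and 5.02 RPKM (-0.75 ± 0.15, limma adjusted p = 0.00297). No hypoxia library of these 3 genes reached the non-stress range. The calls held without any 1 of the 9 TRAP libraries. The summed RPKM of the leaf markers was 26553 in 2NS, 16103 in 2HS and 27044 in 2R, and that of the root markers was 42.3, 44.1 and 30.5, with no marker at 0. CASP1 made up most of the root sum (32.8, 38.6 and 24.0 RPKM). From 2NS to 2HS PIN2 (2.82 to 1.86 RPKM), EXP7 (1.10 to 0.41), COBL9 (0.45 to 0.21) and PRP3 (5.19 to 3.00) fell. The part of the leaf and root markers in these calls was not tested. ROT3 (-0.34 ± 0.19, limma adjusted p = 0.202), DET2 (-0.31 ± 0.18, limma adjusted p = 0.208) and BZR1 (-0.16 ± 0.15, limma adjusted p = 0.448) were not called. The authors' means of CPD were 45.9 RPKM in 2NS and 21.9 RPKM in 2HS, and those of BRI1 were 23.6 and 14.9 RPKM. BR6OX1 was nearly undetected, at 0.42, 0.35 and 0.00 RPKM in 2NS and 0.16, 0.00 and 0.00 RPKM in 2HS, and stayed under the filter of a mean of 1 RPKM.

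**Figure D3:**
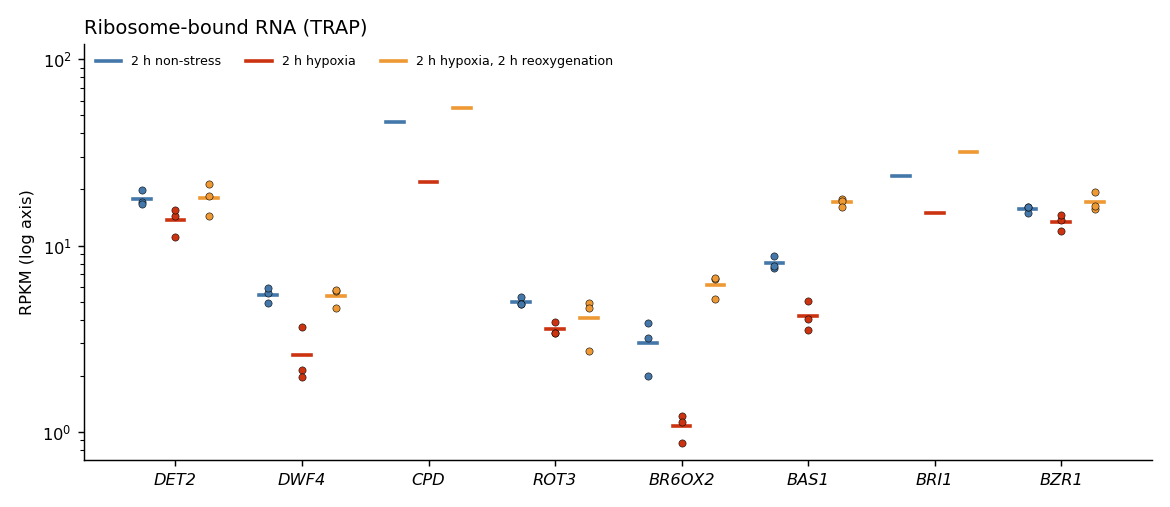
Ribosome-bound RNA of 8 brassinosteroid genes, in RPKM on a log axis, after 2 h without stress, 2 h of hypoxia, and 2 h of hypoxia with 2 h of reoxygenation; points are libraries (3 per group) and bars the authors' means, and CPD and BRI1 have no points because their libraries were not resolved. BAS1 goes from a mean of 8.04 to 4.20 and then 17.1 RPKM.

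After 2 h of reoxygenation the same 3 genes were called higher than in hypoxia, where 19.5% of all genes were called higher and 16.2% lower. BAS1 had 17.81, 17.45 and 16.06 RPKM in 2R (1.64 ± 0.15 over 2HS, limma adjusted p = 4.28e-06), BR6OX2 6.58, 5.17 and 6.71 RPKM (1.61 ± 0.20, limma adjusted p = 4.54e-05) and DWF4 4.65, 5.72 and 5.80 RPKM (0.69 ± 0.19, limma adjusted p = 0.0119). DWF4 missed the threshold without the 2HS library of 6.76 M reads (limma adjusted p = 0.0532). BAS1 and BR6OX2 were also above the level of 2NS, beside 2.72% of all genes called higher and 2.03% lower in 2R against 2NS. No non-stress group had the duration of 2R, and its light condition is not given. Time, light and reoxygenation therefore cannot be told apart in any comparison with 2R. BAS1 was higher by 0.88 ± 0.15 (limma adjusted p = 0.00519). The value for BR6OX2 was 0.74 ± 0.20 (limma adjusted p = 0.0486), and it passed no longer after rescaling (0.83, limma adjusted p = 0.0585), with a pseudocount of 0.25 RPKM (0.88, limma adjusted p = 0.0684), in a fit of 2R and 2NS alone (limma adjusted p = 0.0526) or without any 1 of 7 of the 9 libraries (0.55 to 0.89 over all 9). DWF4 was at -0.13 ± 0.19 against 2NS. CPD had a mean of 54.6 RPKM in 2R and BRI1 of 31.8 RPKM, each the highest of its 3 group means. These 3 comparisons share libraries: a high 2HS value would lower one and raise another.

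In 2NS the ribosome-bound levels per gene length fell in the order CPD (45.9 RPKM), BRI1 (23.6), DET2 (17.9 ± 1.67, SD, n = 3), BZR1 (15.8 ± 0.72), BAS1 (8.04 ± 0.62), DWF4 (5.46 ± 0.50), ROT3 (5.00 ± 0.23), BR6OX2 (3.00 ± 0.92) and BR6OX1 (0.26 ± 0.23). The neighbours DWF4 and ROT3 overlapped in their libraries, and the other pairs of neighbours with resolved libraries did not. In 2HS the libraries of DET2 overlapped those of BZR1, and those of ROT3 overlapped both BAS1 and DWF4. In 2R the mean of BAS1, 17.1 ± 0.93 RPKM (SD, n = 3), lay beside those of DET2 (18.1 ± 3.56) and BZR1 (17.1 ± 1.92), with overlapping libraries.

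Whether the 2 h response differed between kinds of RNA was tested in joint fits. Ribosome-bound RNA came from another line than poly(A)+ RNA, so line and kind of RNA cannot be told apart between them. The median gene of a poly(A)+ library lay between -1.68 and 0.69 log2 units of its group mean, a spread that limits both tests. The poly(A)+ response differed from the nuclear response in 0% of all genes (limma; 97 genes and 0 of 6 members at an unadjusted p under 0.05). The ribosome-bound response differed from the poly(A)+ response in 0.137% of all genes and in none of the 6 members (0 at an unadjusted p under 0.05). The widest gap among the members there was that of DWF4, -0.71 ± 0.48 (limma adjusted p = 1).

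**Figure D4:**
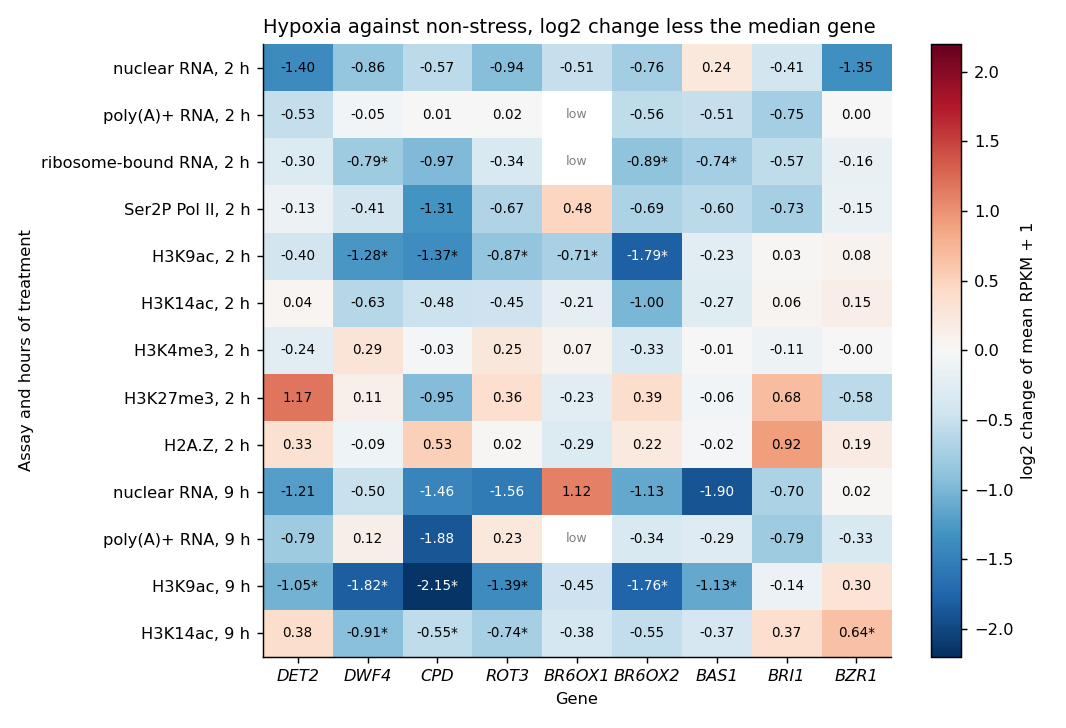
Change of the 9 brassinosteroid genes under hypoxia in each assay at 2 h and 9 h, as the log2 difference of mean RPKM + 1 less that of the median gene (blue is lower in hypoxia); an asterisk marks a called change (limma adjusted p under 0.05), "low" marks a gene under the filter, and cells of unresolved genes show the authors' means without a test. The H3K9ac rows carry 5 asterisks at 2 h and 6 at 9 h, from -0.71 to -2.15.

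Peaks of open chromatin in roots were called on combined libraries, so that a condition has 1 list and no replicate. A member had a peak within 1000 bases of its gene for 5 of the 9 genes in 2NS, 8 in 2HS, 7 in 1R, 6 in 9NS and 6 in 9HS, beside 28.9%, 50.9%, 63.2%, 49.7% and 43.1% of all genes. The lists hold 14398, 27219, 38958, 27065 and 21438 peaks, and since they differ in length, a gene's presence or absence was not read as a gain or a loss. CPD had no peak in any list, and BR6OX1 had a single one, at its 3′ end in 2HS. Scores below are HOMER's own within each list.

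DWF4 had a peak centred between -410 and -495 bases from its start in all 5 lists, at chr3:18817745-18817892 in 2NS (TAIR10, annotated by the authors as promoter), with scores of 42.0 in 2NS, 77.4 in 2HS, 136.8 in 1R, 91.6 in 9NS and 57.5 in 9HS. It also had a peak in its last exon in each list, at chr3:18814913-18815060 in 2NS. BAS1 had a peak just before its start in 2NS (chr2:11380302-11380449), 2HS, 9NS and 9HS and over its start in 1R (chr2:11380325-11380598), with scores between 24.9 (2NS) and 87.9 (1R). BZR1 had a pair of promoter peaks in 2NS, centred at -304 and -123 bases from its start, and 3 peaks each in 2HS, 9NS and 9HS and 4 in 1R, all annotated as promoter. In each list but 2NS, 1 of these peaks was centred 31 to 145 bases after the start of the neighbouring gene AT1G75070. BR6OX2 had a peak at its 3′ end in all 5 lists, at chr3:11813918-11814213 in 2NS. Its introns also carried peaks in 1R and 9NS, with scores of 61.1 and 37.3 in 1R and 29.1 in 9NS, and its start one in 1R (chr3:11810675-11810806, score 27.5). DET2 had a peak 786 bases after its start in 2NS (chr2:15921388-15921683), where the ends of neighbouring genes are also annotated, and its promoter carried one in 9NS alone. ROT3 had none in 2NS and peaks in its introns and at its 3′ end in the other 4 lists. It also had peaks annotated as promoter, at its start in 1R (chr4:17192366-17192497) and centred at -875 bases in 1R and 9NS. At BRI1 the peak present in every list was centred at -1789 bases from the start in 2NS, at chr4:18322595-18322742.

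HRE2 is an ethylene response factor of the group that acts in low oxygen. Of its 4721 peaks in 2HS, 3 fell on members by the same rule, 2 at BAS1 and 1 at ROT3, where 16.6% of all genes have a peak. The first lay over the start of BAS1 (chr2:11380339-11380494, centred at -47 bases from the start) and shared 108 to 156 bases with the open chromatin peak of each of the 5 lists; 3.17% of all genes have an HRE2 peak in the 1000 bases before the start. The second BAS1 peak was in exon 3 (chr2:11382477-11382632) and shared bases with an open chromatin peak in 4 lists, all but 2NS. The peak at the 3′ end of ROT3 (chr4:17187347-17187502) lay 174 bases after the start of the neighbouring gene AT4G36370 and overlapped open chromatin in the same 4 lists. Further out, an HRE2 peak at -1790 bases from the start of BRI1 (chr4:18322590-18322745) overlapped the open chromatin peak in all 5 lists. With no control group for this factor, binding strength was not compared, and over the 9 genes HRE2 ChIP-seq had means from 9.46 RPKM (DWF4) to 22.4 RPKM (DET2).

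Other genes of the pathway were followed through a list of 51: genes of sterol precursors, inactivating enzymes, receptors and coreceptors, kinases and phosphatases of the signalling chain, transcription factors and growth genes induced by the hormone. In H3K9ac at 2 h, 6 of the 50 tested rose and 10 fell, beside 6.6% and 5.09% of all genes, with a median change of -0.10 beside 0 for all genes. Without the filter 3 rose and 7 fell, and 1 rose and 7 fell without the 2NS library of 10.57 M reads, 3 and 6 without that of 11.26 M and 3 and 8 without the 2HS library of 3.87 M. BEE3 and BEE2, bHLH factors that promote growth downstream of the hormone, fell by 1.58 and by 1.22 on the log2 scale, BEH2, a homologue of BZR1, fell by 1.07, and the coreceptor gene SERK4 rose by 1.08. At 9 h, 8 rose and 20 fell, beside 15.1% and 16.3% of all genes, with a median of -0.17. The largest falls were those of SAUR15 (-2.62), an auxin-responsive growth gene, BEE2 (-2.54), BEH1 (-2.31) and BEE3 (-2.01). The 9 members had medians of -0.71 at 2 h and -1.13 at 9 h in the same assay. In H3K14ac at 9 h, 5 of 50 rose and 8 fell (median -0.11; 17.2% and 5.57% of all genes), with EXO and the cell wall gene TCH4 among those that rose (1.17 and 1.13) and SAUR15 and BEE2 among those that fell (-1.19 and -0.95). Without centring 12 fell. Leaving out a 9 h library gave 3 or 4 higher and 4 or 5 lower for the 9NS libraries of 7.05 and 6.55 M and the 9HS library of 8.36 M reads, and SAUR15 lost its call without that of 7.05 M (limma adjusted p = 0.066) or of 8.36 M (0.0899).

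In ribosome-bound RNA, 5 of the 25 list genes tested rose and 8 fell at 2 h of hypoxia (median -0.16; 12.8% and 12.7% of all genes). BEE3 went from a mean of 6.13 to 1.01 RPKM (-1.77 ± 0.21, limma adjusted p = 5e-05), and its relative BEE1 the opposite way, from 2.91 to 14.8 RPKM (2.07 ± 0.18, limma adjusted p = 4.4e-06). BIM1, a bHLH partner of the BZR1 family, fell by 1.24 and the receptor-like gene BRL2 by 1.04. On reoxygenation 13 of 27 rose and 4 fell against 2HS (median 0.25; 19.5% and 16.2% of all genes), led by BEE3 (2.70), BIM1 (1.42) and IAA19 (1.31), an auxin response gene, while BEE1 fell by 1.21. There 2 list genes fell without the filter, and without centring 29.4% of all genes were called higher and 11% lower. Against 2NS, 3 of 29 were higher and 1 lower in 2R, beside 2.72% and 2.03% of all genes. Without centring 6 were higher and 0 lower (5.28% and 1.35% of all genes), without the filter 6 and 3 (5.23% and 20%), and with 1 library left out 0 to 5 and 0 to 1, with 0 in both directions without the 2NS library of 2.53 M or the 2R library of 5.10 M reads. In nuclear RNA at 9 h, 1 of 35 rose, DOGT1 (3.52), a glucosyltransferase that inactivates the hormone, and 3 fell, IBH1 (-3.43), BEE3 (-2.91) and IAA19 (-2.86), beside 0.675% of all genes higher and 0.985% lower. The 9HS means of BEE3 and IAA19 were 0.90 and 0.04 RPKM there, under the pseudocount. None of these 4 calls held in every setting: the 3 falls were lost without the filter (limma adjusted p between 0.156 and 0.218), that of BEE3 after rescaling (limma adjusted p = 0.0822), where 2.31% of all genes were called higher and 1.16% lower, and each of the 4 without at least 1 of the 9 h libraries (0.0516 to 0.137). In poly(A)+ RNA at 9 h, 1 of 29 rose, SERK4 (1.60), and 2 fell, BEE3 (-1.88) and IAA19 (-1.76), beside 2.8% and 0.419% of all genes. BEE3 and IAA19 each had a mean of 0.25 RPKM in 9HS, under the pseudocount, against 17.1 and 15.5 RPKM in 9NS. All 3 calls were lost in a fit of the 9 h groups alone (limma adjusted p between 0.205 and 0.414) and without any 1 of 5 of the 6 libraries at 9 h (0.0592 to 0.237). SERK4, whose libraries overlapped, turned to -0.15 without centring (limma adjusted p = 0.747). After rescaling 7 of 29 rose and 14 fell, beside 19.2% and 20.7% of all genes. No list gene was called in H3K4me3, H3K27me3, H2A.Z or Ser2P at 2 h, but 9 were higher and 4 lower in H2A.Z without the 2HS library of 10.03 M reads, beside 11.5% and 8.83% of all genes, and 1 was higher and 2 lower without that of 5.48 M. Without the filter 1 was called higher in Ser2P and 1 lower in H3K4me3.

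Genes whose RNA pattern was most like that of a member were found by Pearson's r over the 13 group means of nuclear, poly(A)+ and ribosome-bound RNA, after removing each assay's mean, among 11911 protein-coding genes. These points share the level shifts of whole poly(A)+ columns, such as the low 9HS column. CPD was most like AT3G17100 (r = 0.993), AT3G62650 (0.993) and QSOX1 (0.986). The nearest genes to DET2 were UBP16 (0.988), SQS1 (0.986), which encodes squalene synthase, and AT5G64830 (0.981). BAS1 was closest to ERS2 (0.975), an ethylene receptor gene, AT5G01880 (0.965) and AT5G14880 (0.965). For BRI1 they were AT3G26560 (0.983), the ethylene signalling gene EIN2 (0.982) and AT1G24881 (0.982). DWF4 was nearest to AT2G22120 (0.981), PUB8 (0.978) and AT1G79720 (0.978), and ROT3 to AT2G34170 (0.971), AT1G53180 (0.968) and AT1G19720 (0.962). BR6OX2 was nearest to AT2G38610 (0.968), TCP15 (0.964) and TTL4 (0.961), and BZR1 to AT5G57460, AT4G16360 and AT2G39750 (0.984 each). BR6OX1 was not among these genes. Among the other 8 members r ranged from 0.505 (BAS1 and BZR1) to 0.953 (CPD and BRI1).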

How the data were processed

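The authors deposited a table of mean RPKM per group and gene, over whole gene spans, from reads aligned to TAIR10 with TopHat2 and Bowtie2 and counted with HOMER, per the submitters' processing notes. ATAC-seq and HRE2 peak lists carry HOMER's deposited peak score and Araport11 annotation; HRE2 scores are all 0 and were not used. Reads and totals of 77 libraries in 30 columns were recovered from the digits of the means: between 99.94% and 99.99% of low values came out as whole reads. Recovered libraries carry no replicate number, and an unresolved gene has no test.

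Tests used limma 3.58.1 in R 4.3.3 on log2(RPKM + 1), with 1 fit per assay over all its groups, a minimum mean of 1 RPKM over the assay, centring on the median gene, and Benjamini-Hochberg adjustment over all genes tested with a threshold of 0.05. Python 3.11.15, numpy 2.4.6, pandas 2.3.3 and matplotlib 3.10.9 did the rest. Rescaled values divide RPKM by the protein-coding total of the group mean (27339 genes). Each library is also divided by its median ratio to that mean, over protein-coding genes of at least 1 RPKM. Peaks were assigned by the deposited annotation: the member named in it, or the nearest start within 1000 bases of the gene. Every member is named, and of the other pathway genes at most 4 called ones with the largest change per comparison. Members, lists and tests were chosen with earlier results of these data known. Alternatives were a pseudocount of 0.25 RPKM, no filter, no centring, rescaling, a fit of the compared groups alone and leaving out each library, where a lone library left in a group was assumed to vary like the others. Promoter and protein sequences were not analysed here.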

Additional observations from a re-analysis of the deposited data

Results flagged for a closer look

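The fall of H3K9ac over CPD was larger at 9 h than at 2 h of hypoxia: the 9 h response less the 2 h response was -0.78 ± 0.16 (limma adjusted p = 0.0254), as tested by the difference of both changes. CPD had means of 32.7 RPKM in 2NS and 12.0 RPKM in 2HS, and of 43.2 RPKM in 9NS and 8.99 RPKM in 9HS, so that the non-stress mean was higher and the hypoxia mean lower at 9 h (2 libraries per group). The call was lost without any 1 of 7 of the 8 libraries and without the filter on low values.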

How the results depend on the processing

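No paired analysis was possible because the recovered libraries carry no replicate number. H3K9ac calls kept their direction in every setting run: the number called at 9 h stayed at 6 and that at 2 h was 4 to 5 when 1 library was left out. BR6OX1 in H3K9ac at 2 h lost its call without the filter (-0.71, limma adjusted p = 0.0524), as did ROT3 in H3K14ac at 9 h (-0.77, 0.0574), and the H3K9ac 9 h against 2 h count fell to 0 (CPD -0.77, limma adjusted p = 0.0551); BZR1 in H3K9ac at 9 h gained one (0.30, 0.0281). The range over libraries left out was 0 to 5 for H3K14ac at 9 h, 0 to 1 for the H3K9ac 9 h against 2 h difference, 0 to 2 for H2A.Z, 1 to 2 for TRAP 2R against 2NS, 2 to 3 for 2R against 2HS and 3 to 3 for 2HS against 2NS. TRAP 2R against 2NS gave 1 call, in place of 2, with a pseudocount of 0.25 RPKM, after rescaling and with only those groups fitted. Nuclear RNA at 9 h gave 1 with only its groups fitted. In poly(A)+ RNA, where 0 members were called, rescaling gave 3 at 2 h, 3 at 9 h, 1 for 1R against 2HS and 2 for 1R against 2NS; no filter gave 3 at 9 h (1 higher and 2 lower, where 46% of all genes were called), 1 lower each for 1R against 2HS (33%), 1R against 2NS (35.6%) and 9NS against 2NS (36.7%), and 1 higher for the 9 h against 2 h difference (40.3%); no centring gave 6 at 9 h, 1 for 9NS against 2NS and 6 for that difference, in a scale on which 87.7% of all genes are called at 9 h and 67.9% in that difference. The direction at 9 h in poly(A)+ RNA turned for DWF4 (0.24) without filter (-0.68), without centring (-1.51) and after rescaling (-0.17), and for ROT3 (0.34) with the pseudocount of 0.25 (-0.01), without filter (-0.58), without centring (-1.41) and after rescaling (-0.54). BAS1 there (-0.17) ranged from -0.34 to 0.06, the latter without the 9HS library of 8.66 M reads. BR6OX2 and ROT3 in 1R against 2NS stood at 0.04 each without centring. The cause was not tested. Of 91 peaks assigned to members, 51 were left when ATAC peaks needed a score at or above their list's median. Depth limits members that rest on under 10 reads in a library, which occurs in nuclear RNA, poly(A)+ RNA, TRAP and H3K27me3.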
